A study of Mus musculus with 12 samples.

Results

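The 38 genes described here encode NRF2 and its close relatives and partners together with the enzymes that make and use glutathione, run the thioredoxin cycle, remove peroxide and superoxide, and act on quinones, haem, epoxides and aldehydes. They were looked up by symbol among the 26271 loci of the authors' differential expression table, taking the locus with the highest summed level, and 38 of 38 were found. The cells were C2C12, an established line of mouse myoblasts. They had been grown for 24 h in DMEM whose sugar was glucose at 25 mM (high glucose), glucose at 5 mM (low glucose) or galactose at 10 mM, and each medium also held 1 mM sodium pyruvate, 10% fetal bovine serum and 1% penicillin/streptomycin. Each group had 4 polyA RNA-seq libraries, 12 in all. No label states that replicate libraries were separate cultures, so the q-values below may measure technical spread only, and they describe 1 cell line. The groups differ in both the kind and the concentration of the sugar, so from either glucose medium to galactose these cannot be told apart.

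NRF2, encoded by Nfe2l2, is a basic leucine zipper transcription factor that KEAP1 ties to a CUL3 ubiquitin ligase and keeps short-lived in resting cells. When oxidants or electrophiles modify cysteines of KEAP1, NRF2 is no longer degraded, pairs with small MAF proteins and binds antioxidant response elements near genes of glutathione synthesis, thioredoxin reduction, quinone reduction and haem breakdown. Because this control acts mostly on the protein, the Nfe2l2 transcript by itself does not report NRF2 activity. Cells given galactose in place of glucose obtain little ATP from glycolysis and are known to lean on mitochondrial respiration, a main source of superoxide and hydrogen peroxide in muscle cells.

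Levels are FPKM, sequenced fragments per length of transcript and per depth of sequencing, as the authors deposited them, with their normalization between libraries not given in the sources used here: 1 pooled value for each group. There is therefore no value per library to show, no SD, and the depth is unknown. Fold and log2 changes were computed from these values with no pseudocount. A gene is called higher or lower where the authors' Cuffdiff test ran on it and the q-value in their table was below 0.05. Of the 38 genes, 2 were read from loci that combine several genes, and 7 (Txnrd1, Txnrd2, Prdx1, Prdx2, Prdx5, Sod1 and Gpx4) share their deposited interval with other loci. That q adjusts over the 44006 tests of the 3 comparisons together, and 0.000239 is the lowest value it takes, so genes at that floor cannot be ranked by it. Each group enters 2 of the 3 comparisons, which are not independent of each other. Over all loci FPKM summed to 548145 with high glucose, to 582498 with low glucose and to 617537 with galactose, and scaling the groups to equal sums lowers every log2 change of low over high glucose by 0.09, of galactose over high glucose by 0.17 and of galactose over low glucose by 0.08. None of the calls of a member turned direction under that scaling, which kept the authors' q. Markers of myoblasts (Myod1, Myf5, Des, Cdh15, Pax7 and Itga7) were present, summing to 867 FPKM in high glucose, to 566 in low glucose and to 460.1 in galactose, and 5 of 6 were called lower from high to low glucose and 6 of 6 in galactose against either glucose medium. Markers of endothelium, adipocytes and hepatocytes summed to at most 0.531 FPKM in any group, with Alb and Ttr at 0. The 6 macrophage markers summed to 72.9 to 98.6 FPKM, nearly all of it from Cd68, whose locus is combined with Eif4a1; the other 5 summed to at most 0.137 FPKM, with Adgre1 at 0. The part of the lower myoblast markers in the results below was not tested, and in such bulk RNA fewer cells of a type and less RNA per cell cannot be told apart.

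Promoters of the genes were searched for the core of an antioxidant response element, TGACNNNGC, on both strands of the RefSeq windows on GRCm38.p6, which run from 250 bases before to 50 bases after a start. Windows were found for 31 of the 38 genes, 43 windows in all, and not for Gclc, Gsr, Gsta4, Abcc1, Prdx6, Hmox1 and Aldh3a1. The core was in 8 of these 43 windows (18.6%), against 4071 of all 32851 windows (12.4%), and in 8 of the 31 genes (25.8%) against 14.0% of all 27025 genes with a window. The fully specified form TGACTCAGC, which is included in the core, was in 1 of the genes' windows, that of Prdx1, and in 0.454% of all windows. The genes holding the core were Nfe2l2, Gclm, Txnrd1, Srxn1 and Prdx1, each called higher in galactose than in high glucose, and Mgst1, Sod1 and Blvra, which were not called. Among the 31 genes, 5 of 8 with the core and 13 of 23 without it were called higher in galactose, with median log2 changes of 0.33 and 0.28. The genes without a window, Gsta4 and Hmox1 among them, were all called higher in galactose than in high glucose. They enter neither of these counts. The matches to the core are letters in a window and not measured binding. The stretches of 4 of the genes that rose, and of Sod1 as a gene with the core that was not called, are shown on the strand of the gene, with the core in capitals; it lies on the gene's own strand in Nfe2l2 and on the opposite strand, and so appears as its reverse complement, in the other four.
Nfe2l2: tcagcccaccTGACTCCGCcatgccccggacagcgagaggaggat
Gclm: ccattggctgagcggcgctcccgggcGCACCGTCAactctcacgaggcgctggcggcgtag
Txnrd1: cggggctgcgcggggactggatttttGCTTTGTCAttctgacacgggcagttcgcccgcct
Prdx1: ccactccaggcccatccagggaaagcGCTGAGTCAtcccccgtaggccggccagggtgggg
Sod1: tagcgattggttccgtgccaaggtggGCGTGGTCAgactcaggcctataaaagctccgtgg
The Nfe2l2 stretch is chr2:75704869-75704913, minus strand, with the core 240 to 232 bases before the start. The Gclm stretch is chr3:122245397-122245457, plus strand, with the core 134 to 126 bases before the start. The Txnrd1 stretch is chr10:82859088-82859148, plus strand, before 1 of its 3 starts, with the core 92 to 84 bases upstream. The Prdx1 stretch is chr4:116685440-116685500, plus strand, with the core 133 to 125 bases before the start. The Sod1 stretch is chr16:90220680-90220740, plus strand, with the core 56 to 48 bases before the start.

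More of these genes were called in galactose against either glucose medium than between the glucose media, and most of the calls in galactose were higher. From high glucose to galactose 25 of 38 genes rose, against 26.5% of the 14812 loci tested, and 6 fell, against 24.8%. From low glucose to galactose 26 of the 37 genes tested rose, against 17.4% of 14495 loci, and 3 fell, against 16.0%. From high to low glucose 13 of 38 rose, against 18.3% of 14699 loci, and 8 fell, against 18.2%. The median log2 change of the genes was 0.46 from high glucose to galactose (0.29 with equal sums), 0.42 from low glucose to galactose (0.33) and 0.09 from high to low glucose (0.00193). The medians of all tested loci were 0.00577, 0.0101 and 0.00689 in the same order.

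Changes of at least 2-fold were found in galactose and in none of the 38 genes from high to low glucose. Gclm, Gsta4, Srxn1, Prdx6, Cat, Nqo1 and Hmox1, 7 of 38, were at least 2-fold higher in galactose than in high glucose, against 3.27% of the tested loci. Gclm, Gsta4, Mgst1, Srxn1, Cat, Nqo1, Hmox1, Aldh3a1 and Osgin1, 9 of 37, were at least 2-fold higher in galactose than in low glucose, against 1.69% of the tested loci. With equal sums Prdx6, Cat and Nqo1 drop below 2-fold over high glucose, which leaves 4 genes against 2.28% of loci, and Mgst1, Cat and Osgin1 drop below 2-fold over low glucose, which leaves 6 against 1.37%. Gstt1 alone among the 38 was called at least 2-fold lower, from high glucose to galactose, at levels under 1 FPKM in every group. The plot of log2 changes draws the 3 comparisons gene by gene.

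**Figure D1:**
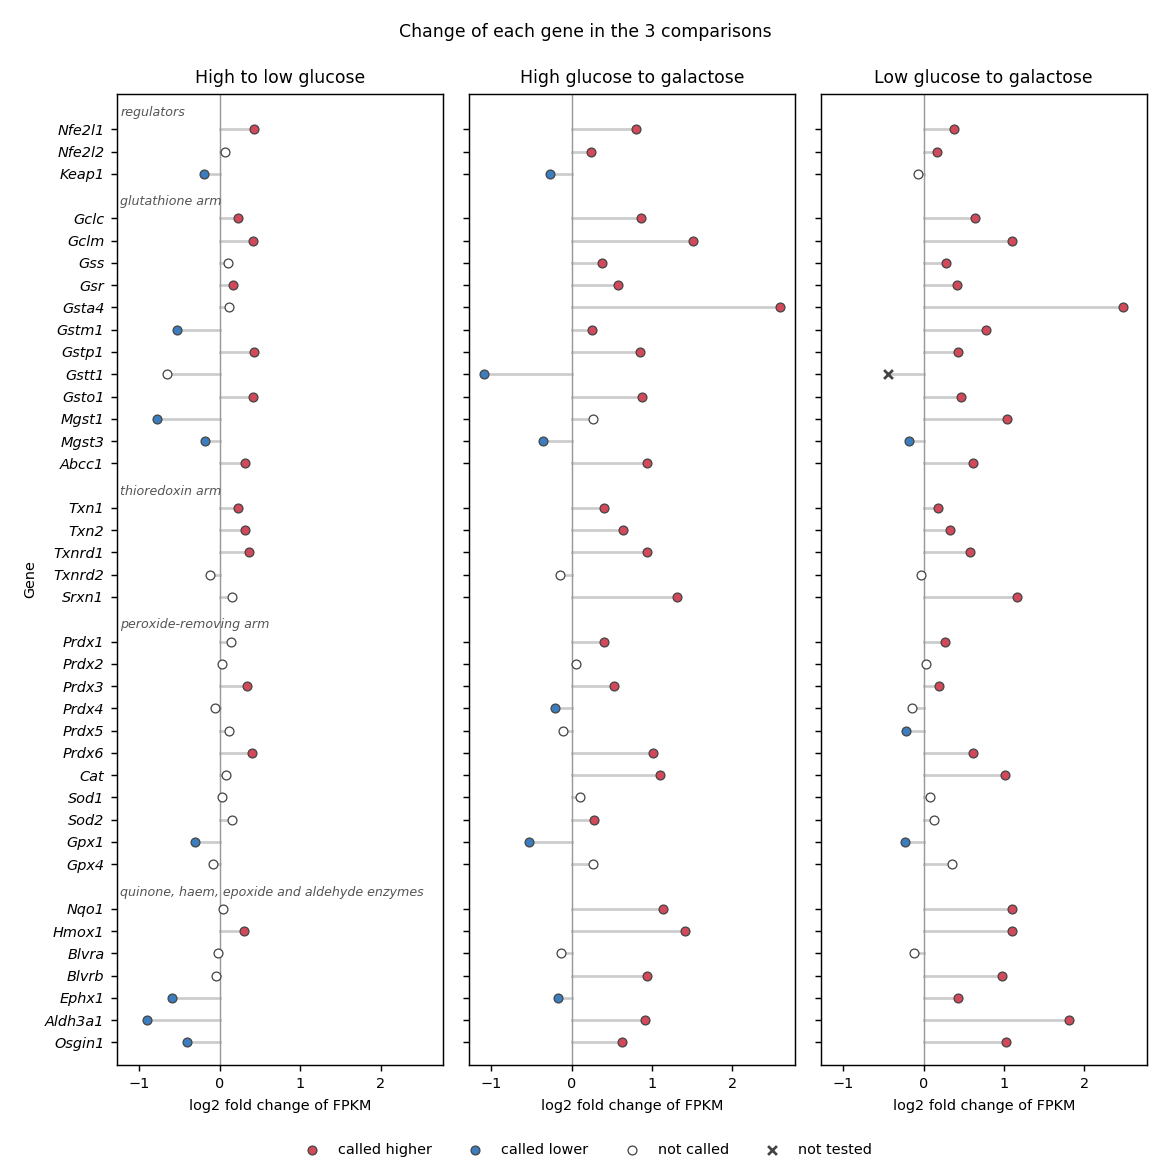
Log2 fold change of FPKM for each of the 38 genes, by arm, in the 3 comparisons; filled points are genes called higher or lower by the authors' q below 0.05, open points were not called and the cross was not tested. From high to low glucose 13 genes lie on the higher side as called and 8 on the lower, and in galactose against high glucose 25 and 6, with Gsta4 farthest at 2.59.

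The 3 regulators moved by less than 2-fold. Nfe2l1, which encodes NRF1, a factor of the endoplasmic reticulum known for driving proteasome genes, stood at 77.6 FPKM in high glucose, at 104 in low glucose and at 136 in galactose. It rose at each step, by 1.34-fold from high to low glucose and 1.30-fold from low glucose to galactose. Nfe2l2, which encodes NRF2 itself, stood at 42.4 FPKM in high glucose, at 44.4 in low glucose and at 49.98 in galactose. The galactose level was 1.18-fold that in high glucose (log2 0.24, or 0.06 with equal sums), with q = 0.00124 in the authors' deposited table. High and low glucose were not separated for it, with q = 0.472 in the authors' deposited table. Keap1, the adaptor that marks NRF2 for degradation, stood at 28.9 FPKM in high glucose, at 25.1 in low glucose and at 24.0 in galactose. It fell from high to low glucose (log2 -0.20) and from high glucose to galactose (log2 -0.27), while low glucose and galactose were not separated (q = 0.471 in the authors' deposited table). So in both media without high glucose the inhibitor's transcript was below its level in high glucose, while that of Nfe2l2 was called above it in galactose alone.

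All 4 genes of glutathione synthesis and recycling rose in galactose against both glucose media, and 3 of the 4 rose from high to low glucose. Of all tested loci 26.5% rose from high glucose to galactose, 17.4% from low glucose to galactose and 18.3% from high to low glucose. Glutamate cysteine ligase makes the dipeptide that limits glutathione synthesis. Its catalytic subunit, Gclc, stood at 26.8 FPKM in high glucose, at 31.4 in low glucose and at 48.8 in galactose, which is 1.82-fold higher in galactose than in high glucose. Its modifier subunit, Gclm (chromosome 3, 122245487 to 122267215 on GRCm38), which raises the activity of the catalytic subunit, stood at 33.7 FPKM in high glucose, at 44.7 in low glucose and at 95.6 in galactose. The rise of Gclm to galactose was 2.84-fold over high glucose (log2 1.51) and 2.14-fold over low glucose, and 1.84% of tested loci had a higher log2 change from high glucose. Both subunits were also called higher in low than in high glucose, Gclm by 1.33-fold and Gclc by 1.17-fold. In FPKM, which is per length, the level of Gclm was above that of Gclc in every medium, and the gap was widest in galactose.

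Gss, glutathione synthetase, which adds glycine in the last step, stood at 26.3 FPKM in high glucose, at 28.1 in low glucose and at 34.1 in galactose. It rose by 1.30-fold from high glucose to galactose, and high and low glucose were not separated (q = 0.264 in the authors' deposited table). Gsr, glutathione reductase, which returns oxidised glutathione to the reduced form with NADPH, stood at 35.6 FPKM in high glucose, at 39.8 in low glucose and at 53.3 in galactose. Its rise was 1.497-fold from high glucose to galactose, and its 1.12-fold rise from high to low glucose lay near the threshold, with q = 0.0401 in the authors' deposited table. The step that limits synthesis therefore had the larger changes of the 4 genes in galactose, and the last step the smallest.

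Among the 7 transferases and the pump that handle glutathione conjugates, 5 of 8 rose from high glucose to galactose, against 26.5% of all tested loci, and 2 of 8 fell, a share near the 24.8% of all loci. Gsta4, an alpha class transferase known for conjugating 4-hydroxynonenal, an aldehyde from oxidised lipids, stood at 113 FPKM in high glucose, at 123 in low glucose and at 683 in galactose. It was 6.02-fold higher in galactose than in high glucose (log2 2.59) and 5.57-fold higher than in low glucose (log2 2.48). Of all tested loci, 0.621% had a higher log2 change from high glucose and 0.359% from low glucose. High and low glucose were not separated for Gsta4, with q = 0.165 in the authors' deposited table. It was the most abundant of the 38 genes in galactose, and in high glucose 8 of the others were above it.

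Gsta4 lies on chromosome 9 at 78191966 to 78209349 (GRCm38), between Gclc, at 77754535 to 77794489, and the related alpha class genes Gsta1, at 78230669 to 78242683, and Gsta2, at 78331018 to 78347192. Gsta1, outside the 38, stood at 1.68 FPKM in high glucose, at 1.71 in low glucose and at 21.9 in galactose, and Gsta2 at 2.03 FPKM in high glucose, at 2.13 in low glucose and at 30.4 in galactose. Both rose in galactose, by 13.0-fold and 15.0-fold over high glucose. These neighbours are near-identical copies whose reads may be split between them, so their separate values are uncertain, and both stayed far under Gsta4 in level.

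Gsto1, an omega class transferase with thiol transferase activity, stood at 116 FPKM in high glucose, at 155 in low glucose and at 214 in galactose and rose at each step, 1.84-fold in all. Gstp1, a pi class transferase, was read from a locus combined with its copy Gstp2, which stood at 68.6 FPKM in high glucose, at 92.0 in low glucose and at 123 in galactose. That locus rose by 1.80-fold from high glucose to galactose. Abcc1, the pump MRP1 that exports glutathione conjugates, stood at 26.9 FPKM in high glucose, at 33.5 in low glucose and at 51.4 in galactose and was 1.91-fold higher in galactose than in high glucose. Each of these 3 was also called higher in low than in high glucose, by 1.33-fold, 1.34-fold and 1.24-fold.

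The other 4 transferases followed other orders. Gstm1, a mu class transferase, stood at 32.0 FPKM in high glucose, at 22.1 in low glucose and at 38.1 in galactose: it fell by 0.53 on the log2 scale from high to low glucose and was 1.72-fold higher in galactose than in low glucose. Mgst1, a membrane-bound transferase with peroxidase activity, stood at only 1.69 FPKM in high glucose, at 0.984 in low glucose and at 2.03 in galactose. It fell by 0.78 on the log2 scale in low glucose and was 2.06-fold higher in galactose than in low glucose, while galactose and high glucose were not separated (q = 0.227 in the authors' deposited table). Mgst3, another membrane-bound member, stood at 75.4 FPKM in high glucose, at 66.4 in low glucose and at 58.7 in galactose and fell at each step, with a log2 change of -0.36 from high glucose to galactose. Gstt1, a theta class transferase, was close to absent at 0.401 FPKM in high glucose, at 0.255 in low glucose and at 0.188 in galactose, and its fall from high glucose to galactose had q = 0.0215 in the authors' deposited table. The falls from high glucose to galactose in this group were thus those of Mgst3 and Gstt1.

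In the thioredoxin arm 4 of 5 genes rose in galactose against both glucose media and none fell. Of all tested loci 26.5% rose and 24.8% fell from high glucose, and 17.4% rose and 16.0% fell from low glucose. Txn1, the cytosolic thioredoxin that reduces disulfides of its client proteins, stood at 197 FPKM in high glucose, at 230.1 in low glucose and at 259 in galactose. Txn2, its mitochondrial counterpart, stood at 168 FPKM in high glucose, at 208 in low glucose and at 262 in galactose. Both rose at each step, Txn1 by 1.32-fold and Txn2 by 1.56-fold from high glucose to galactose. The smallest step was that of Txn1 from low glucose to galactose (1.13-fold), with q = 0.0303 in the authors' deposited table.

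Txnrd1, the cytosolic thioredoxin reductase, a selenoprotein that passes electrons from NADPH to thioredoxin, stood at 139 FPKM in high glucose, at 179 in low glucose and at 267 in galactose. It rose by 1.28-fold from high to low glucose and 1.92-fold from high glucose to galactose. Txnrd2, the mitochondrial reductase, stood at 11.1 FPKM in high glucose, at 10.3 in low glucose and at 10.0 in galactose and was not called in any comparison, with q = 0.592 from high glucose to galactose in the authors' deposited table. Its deposited interval is shared by 3 loci, and that of Txnrd1 by 2. Srxn1 (chromosome 2, 152105524 to 152111376), sulfiredoxin, which repairs overoxidised peroxiredoxins, stood at 44.1 FPKM in high glucose, at 48.8 in low glucose and at 109.7 in galactose. It was 2.49-fold higher in galactose than in high glucose (log2 1.31), the largest change of the 5 genes of this arm, and its 1.11-fold difference from high to low glucose was not called (q = 0.0624 in the authors' deposited table). The cytosolic and the mitochondrial thioredoxin thus rose together, while of their reductases the cytosolic one was called and the mitochondrial one was not; that difference between genes was not tested.

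In the peroxide-removing arm 5 of 11 genes (45.5%) rose from high glucose to galactose, against 26.5% of all tested loci, and 2 of 11 (18.2%) fell, against 24.8%. The arm also counts the superoxide dismutases Sod1 and Sod2, which make hydrogen peroxide rather than remove it. Peroxiredoxins reduce hydrogen peroxide through a reactive cysteine. Prdx6, the peroxiredoxin that uses glutathione in place of thioredoxin, stood at 67.7 FPKM in high glucose, at 89.6 in low glucose and at 137 in galactose. It rose at each step and was 2.02-fold higher in galactose than in high glucose (log2 1.01, or 0.84 with equal sums), the largest rise among the 6 peroxiredoxins. Prdx3, which resides in mitochondria, stood at 43.5 FPKM in high glucose, at 54.8 in low glucose and at 62.5 in galactose and also rose at each step, 1.44-fold in all. Prdx1, a cytosolic form, stood at 103 FPKM in high glucose, at 113 in low glucose and at 136 in galactose and rose by 1.32-fold from high glucose to galactose.

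Prdx2, the other main cytosolic form, stood at 247 FPKM in high glucose, at 251 in low glucose and at 256 in galactose and was not called in any comparison. Its log2 change from high glucose to galactose was 0.05, or -0.12 with equal sums, so even its sign rests on the scaling. Prdx4, the form of the endoplasmic reticulum, stood at 93.1 FPKM in high glucose, at 89.2 in low glucose and at 80.7 in galactose and fell by 0.21 on the log2 scale from high glucose to galactose. Prdx5, found in mitochondria, peroxisomes and cytosol, was read from a locus combined with Esrra and stood at 309.8 FPKM in high glucose, at 336 in low glucose and at 288 in galactose. That locus fell from low glucose to galactose (log2 -0.22), with q = 0.0175 in the authors' deposited table, and was not called between either of them and high glucose. The most abundant peroxiredoxins, Prdx5 and Prdx2, were therefore not among those that rose.

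Catalase, Cat (chromosome 2, 103453904 to 103485153), the haem enzyme of peroxisomes that splits hydrogen peroxide, stood at 23.7 FPKM in high glucose, at 25.0 in low glucose and at 50.5 in galactose. It was 2.13-fold higher in galactose than in high glucose (log2 1.09) and 2.02-fold higher than in low glucose, and the glucose media were not separated (q = 0.367 in the authors' deposited table). Gpx1, the cytosolic glutathione peroxidase and a selenoprotein, had the opposite course, at 192 FPKM in high glucose, at 155 in low glucose and at 133 in galactose. It fell at each step, with a log2 change of -0.31 from high to low glucose and -0.54 from high glucose to galactose. The 2 enzymes that act on the same peroxide thus moved in opposite directions in galactose, each with a called change.

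Superoxide dismutases turn superoxide into hydrogen peroxide. Sod1, the cytosolic form, stood at 245 FPKM in high glucose, at 249 in low glucose and at 263 in galactose and was not called in any comparison (q = 0.408 from high glucose to galactose in the authors' deposited table). Sod2, the mitochondrial form, stood at 16.6 FPKM in high glucose, at 18.5 in low glucose and at 20.1 in galactose and rose by 1.21-fold from high glucose to galactose, while neither step through low glucose was called. Gpx4, the selenoprotein that reduces lipid peroxides in membranes, stood at 37.7 FPKM in high glucose, at 35.6 in low glucose and at 45.4 in galactose. It was not called although galactose stood 1.28-fold over low glucose, with q = 0.801 in the authors' deposited table. Its deposited interval is shared by 45 loci, more than for any other of the 38 genes, and the part of this in its q was not tested.

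In the last group, enzymes of quinones, haem, epoxides and aldehydes with Osgin1, 5 of 7 rose and 1 fell from high glucose to galactose, and 6 of 7 rose from low glucose to galactose. Of all tested loci 26.5% rose and 24.8% fell from high glucose to galactose, and 17.4% rose from low glucose. Nqo1 (chromosome 8, 107388225 to 107403205), the quinone reductase that is a standard readout of NRF2, stood at 63.8 FPKM in high glucose, at 65.9 in low glucose and at 141 in galactose. It was 2.203-fold higher in galactose than in high glucose (log2 1.14), and the glucose media were not separated (q = 0.642 in the authors' deposited table). Hmox1 (chromosome 8, 75093618 to 75100593), the inducible haem oxygenase that opens haem to biliverdin, stood at 99.7 FPKM in high glucose, at 123 in low glucose and at 264 in galactose. It rose at each step, by 1.23-fold from high to low glucose and 2.65-fold from high glucose to galactose (log2 1.40). Both genes were thus above 100 FPKM in galactose, but low glucose was called above high glucose for Hmox1 alone.

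Biliverdin reductases turn biliverdin into bilirubin. Blvrb, which also reduces flavins, stood at 33.3 FPKM in high glucose, at 32.2 in low glucose and at 63.6 in galactose and was 1.91-fold higher in galactose than in high glucose. Blvra, the main reductase of adult tissues, stood at 22.03 FPKM in high glucose, at 21.8 in low glucose and at 20.1 in galactose and was not called in any comparison (q = 0.154 from high glucose to galactose in the authors' deposited table). Hmox1 and Blvrb were thus called higher in galactose than in high glucose, while Blvra was not called.

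Aldh3a1 (chromosome 11, 61208510 to 61218418), which oxidises aldehydes from lipid peroxidation, stood at 7.61 FPKM in high glucose, at 4.07 in low glucose and at 14.3 in galactose. It fell by 0.90 on the log2 scale from high to low glucose, rose by 1.87-fold from high glucose to galactose and was 3.51-fold higher in galactose than in low glucose (log2 1.81). Only 0.717% of tested loci had a higher log2 change from low glucose to galactose. Osgin1, an inhibitor of growth induced by oxidative stress, stood at 12.5 FPKM in high glucose, at 9.46 in low glucose and at 19.3 in galactose and took the same order, with galactose 2.04-fold over low glucose. Ephx1, the microsomal epoxide hydrolase, stood at 63.0 FPKM in high glucose, at 41.6 in low glucose and at 55.9 in galactose. It fell by 0.60 on the log2 scale in low glucose and was only partly higher again in galactose, where it stayed below high glucose (log2 -0.17, q = 0.0265 in the authors' deposited table).

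**Figure D2:**
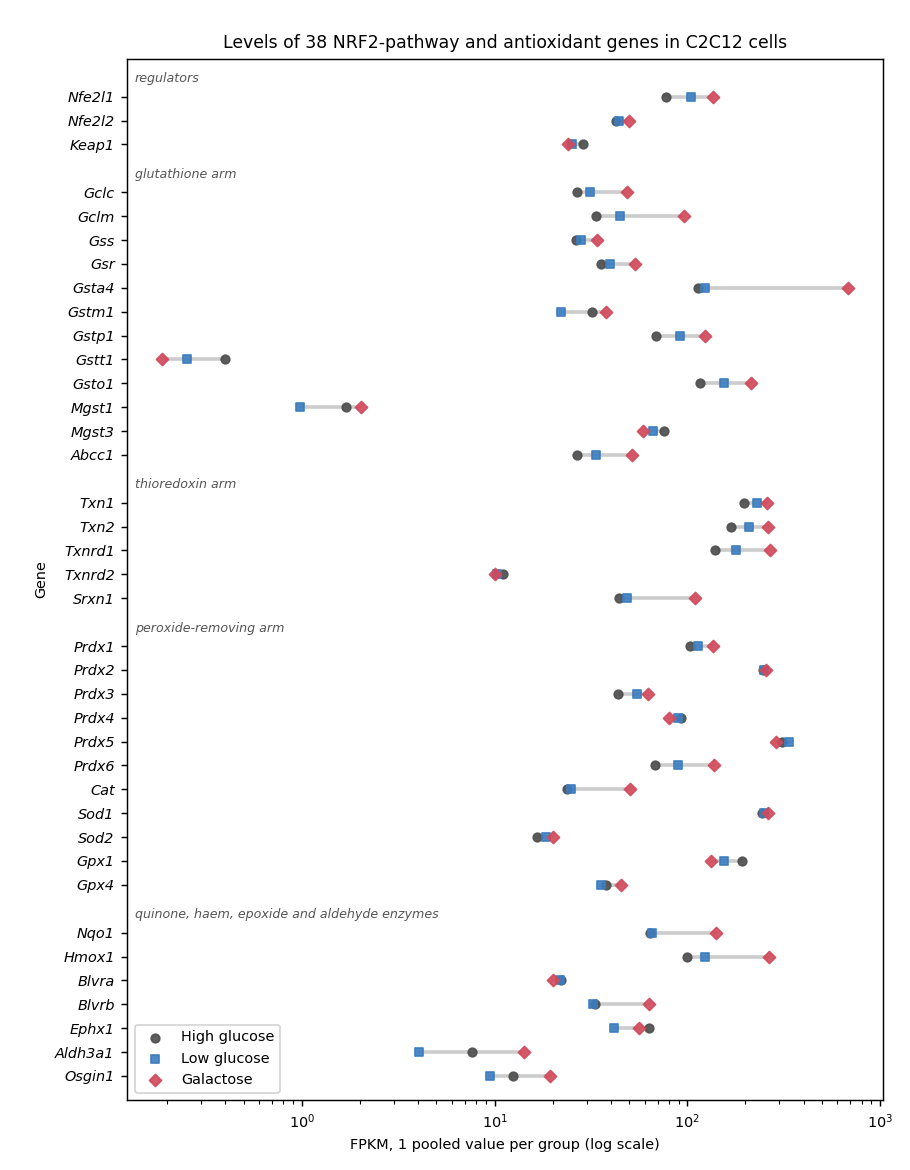
FPKM of the 38 genes on a log axis, 1 pooled value of the authors for each of high glucose, low glucose and galactose, grouped by arm; grey bars join the lowest and the highest group. Galactose holds the highest value of most genes, and Gsta4 has the widest span at a high level. The abundant genes Prdx2, Prdx5 and Sod1, drawn in the peroxide-removing arm, span little.

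Compared arm by arm, larger shares of the glutathione and thioredoxin genes than of the peroxide-removing genes were called higher in galactose. The peroxide-removing arm is counted with Sod1, not called, and Sod2, called higher from high glucose, both of which make hydrogen peroxide. From high glucose to galactose 9 of 12 glutathione genes (75.0%), 4 of 5 thioredoxin genes (80.0%) and 5 of 11 peroxide-removing genes (45.5%) rose, and 2, 0 and 2 fell, against 26.5% of all tested loci higher and 24.8% lower. The median log2 changes were 0.71, 0.64 and 0.27, or 0.54, 0.47 and 0.10 with equal sums. From low glucose to galactose 10 of 11 glutathione genes tested, 4 of 5 thioredoxin genes and 4 of 11 peroxide-removing genes rose, against 17.4% of all loci, with medians of 0.62, 0.33 and 0.13. From high to low glucose 6 of 12, 3 of 5 and 2 of 11 rose, with medians of 0.14, 0.23 and 0.08, the last of which is -0.01 with equal sums. Against 18.3% of all loci, the 2 of 11 peroxide-removing genes (18.2%) are at the background. Prdx1, Prdx2, Prdx5, Sod1 and Gpx4 share their deposited interval with other loci, as do Txnrd1 and Txnrd2, but no glutathione gene does. Of these peroxide-removing genes only Prdx1 was called from high glucose to galactose, and it rose. Of the others in that arm, Prdx3, Prdx6, Cat and Sod2 rose and Prdx4 and Gpx1 fell. The part of shared intervals in the gap between arms was not tested. These are counts over few genes that share libraries, and the difference between arms was not tested.

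Within the glutathione arm, synthesis and recycling had a median of 0.72 from high glucose to galactose and transfer and export 0.55. Within the peroxide-removing arm, 3 of 6 peroxiredoxins and 2 of 5 of catalase, the dismutases and the glutathione peroxidases rose, with 1 gene falling in each. These counts from high glucose to galactose stand against 26.5% of all tested loci higher and 24.8% lower. The 7 quinone, haem, epoxide and aldehyde genes had a median of 0.91 from high glucose to galactose, and of 1.03 when low glucose was the reference. From high to low glucose their median was -0.04, with 1 gene higher and 3 lower. The 1 of 7 higher (14.3%) is near the 18.3% of all tested loci, and the 3 lower (42.9%) stand against 18.2%.

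Summed FPKM, which weights each gene by its abundance, gave a wider gap between the arms. The glutathione arm summed to 557 with high glucose, to 637 with low glucose and to 1402 with galactose, a ratio of galactose to high glucose of 2.52. Gsta4 accounts for much of this: without it the sums were 444, 514 and 719, a ratio of 1.62. The thioredoxin arm summed to 559.6, 676 and 908, a ratio of 1.62 as well. The peroxide-removing arm summed to 1379, 1416 and 1471, a ratio of 1.07 that became 0.947 with equal sums. In high glucose Prdx2, Prdx5, Sod1 and Gpx1 held 72.1% of that sum, and together they stood at 994, 990.4 and 939 FPKM, while the other 7 genes of the arm summed to 385, 426 and 532, a ratio of 1.38. The sum of the quinone, haem, epoxide and aldehyde genes was 302 with high glucose, 298 with low glucose and 578 with galactose, a ratio of 1.91. Over all 38 genes the ratio of galactose to high glucose was 1.55, or 1.38 with equal sums.

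**Figure D3:**
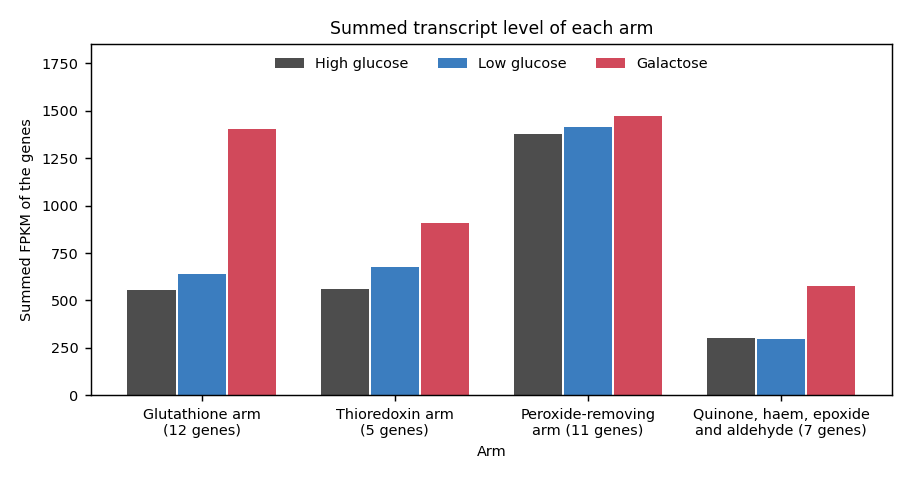
Summed FPKM of the genes of each arm in high glucose, low glucose and galactose, from the authors' pooled group values, with no error bars since there is 1 value per group. The glutathione arm goes from 557 to 1402 between high glucose and galactose, and the peroxide-removing arm from 1379 to 1471.

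The order of the 3 media divided the genes by how they stood in low glucose. How many of all tested loci follow each order was not counted. The counts of orders here and in the next paragraph therefore stand against no background and describe these genes only. The levels of 23 genes ran from high glucose through low glucose to galactose, and 7 ran in the reverse order. For 13 genes each step of the rising order was called: Nfe2l1, Gclc, Gclm, Gsr, Gstp1, Gsto1, Abcc1, Txn1, Txn2, Txnrd1, Prdx3, Prdx6 and Hmox1. For 8 others galactose was called above both glucose media while the glucose media were not separated: Nfe2l2, Gss, Gsta4, Srxn1, Prdx1, Cat, Nqo1 and Blvrb. The second set holds Gsta4, Srxn1, Nqo1 and Cat, 4 of the 7 genes at least 2-fold higher in galactose than in high glucose.

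Another 5 genes, Gstm1, Mgst1, Ephx1, Aldh3a1 and Osgin1, fell from high to low glucose and rose from low glucose to galactose. Their falls in low glucose were between -0.41 (Osgin1) and -0.90 (Aldh3a1) on the log2 scale. Of these 5, Gstm1, Aldh3a1 and Osgin1 were called higher in galactose than in high glucose, Ephx1 lower, and Mgst1 was not called. Mgst3 and Gpx1 fell at each step. Txnrd2, Prdx2, Sod1, Gpx4 and Blvra were not called in any comparison; of these Prdx2 and Sod1 are the most abundant.

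**Figure D4:**
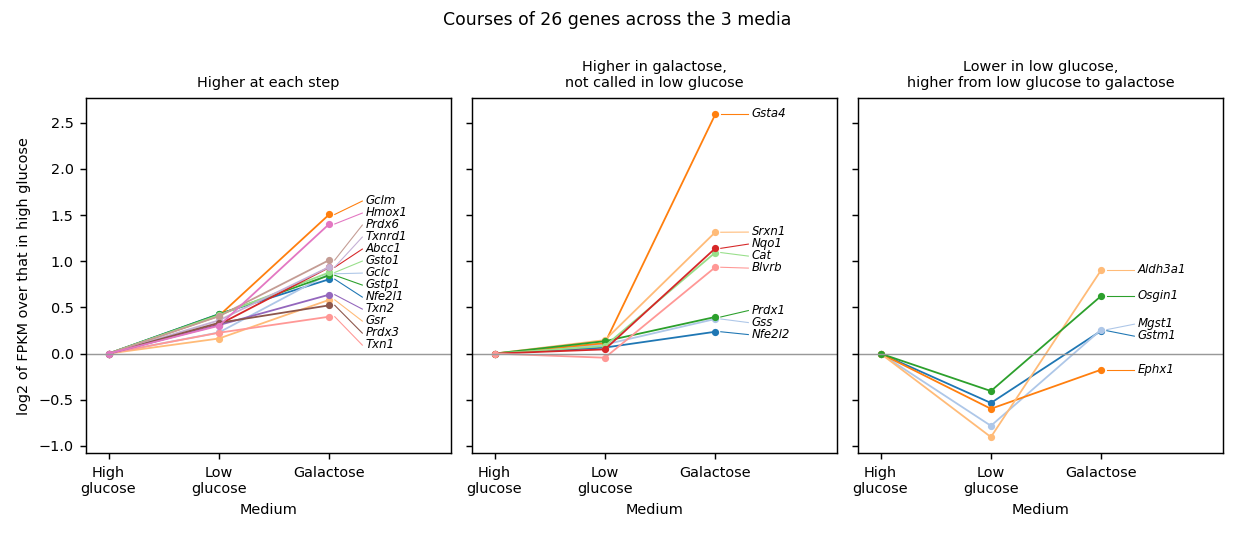
Log2 of FPKM over the level in high glucose for 26 genes across the 3 media, with the 13 genes called higher at each step on the left, the 8 called higher in galactose but not in low glucose in the middle, and the 5 that fell in low glucose and rose from there to galactose on the right. Gsta4 reaches 2.59 from a low glucose value of 0.11, and Aldh3a1 goes from -0.90 to 0.91.

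The mitochondrial enzymes among the 38 and their cytosolic counterparts were counted separately, and the difference between them was not tested. From high glucose to galactose 3 of 5 mitochondrial genes rose, against 26.5% of all tested loci (Txn2, Prdx3 and Sod2; Txnrd2 and Prdx5 were not called), with a median log2 change of 0.28. Of the 5 cytosolic genes 3 rose (Txn1, Txnrd1 and Prdx1; Prdx2 and Sod1 were not called), with a median of 0.40. Of the 4 selenoproteins, which take up selenium as selenocysteine, Txnrd1 rose, Gpx1 fell, and Txnrd2 and Gpx4 were not called from high glucose to galactose. These shares, 25% higher and 25% lower, are near the 26.5% and 24.8% of all tested loci. Txnrd1, Txnrd2 and Gpx4 share their deposited interval with other loci.

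Around the 38 genes, 94 others of the same pathways were looked up, at 92 loci. Among these loci is the combined one of Gstp1 and Gstp2, which is thus counted again here. From high glucose to galactose 38 of the 77 tested rose and 21 fell, with a median log2 change of 0.22 (0.05 with equal sums), and from low glucose to galactose 40 of 76 rose and 14 fell. From high to low glucose 16 of 75 (21.3%) rose, near the 18.3% of all loci, and 21 (28.0%) fell, against 18.2%. Of all loci 26.5% rose and 24.8% fell from high glucose to galactose, so the 21 falls there (27.3%) are near the background, and the counts of the single lists are to be read against the same shares. From low glucose to galactose 17.4% of all loci rose and 16.0% fell, against 52.6% and 18.4% of these genes. Among 7 tested partners and antagonists of NRF2, 4 rose and 1 fell from high glucose to galactose. Sqstm1, the autophagy receptor p62 that binds KEAP1, stood at 427 FPKM in high glucose, at 624 in low glucose and at 1559.8 in galactose and rose by 3.65-fold. Bach1, which represses Hmox1 at the same DNA elements, stood at 7.03 FPKM in high glucose, at 6.28 in low glucose and at 7.24 in galactose and was not called between high glucose and galactose (q = 0.664 in the authors' deposited table).

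Cystine uptake supplies the cysteine for glutathione. Of 7 tested genes of cystine uptake and glutathione breakdown, 4 rose and 2 fell from high glucose to galactose. Slc7a11, the cystine carrier xCT, stood at 4.26 FPKM in high glucose, at 7.004 in low glucose and at 16.3 in galactose, 3.83-fold higher in galactose than in high glucose. Slc3a2, its heavy chain, stood at 96.5 FPKM in high glucose, at 193 in low glucose and at 298 in galactose, 3.09-fold higher in galactose than in high glucose. The deposited interval of Slc3a2 is shared by 23 loci. Chac1, which breaks glutathione down in the cytosol, stood at 23.7 FPKM in high glucose, at 133 in low glucose and at 202 in galactose and rose 5.61-fold already from high to low glucose. Ggt7, of the gamma-glutamyltransferase family, stood at 1.89 FPKM in high glucose, at 1.27 in low glucose and at 0.675 in galactose and fell by 1.48 on the log2 scale from high glucose to galactose. Slc7a11 and Slc3a2 of uptake and Chac1 of breakdown thus rose together, while Ggt7 fell. The list's count therefore gives no net direction for glutathione.

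NADPH feeds both glutathione reductase and thioredoxin reductase. Of 6 genes listed for its supply, 4 rose from high glucose to galactose (Pgd, Taldo1, Tkt and Me1) and Idh1 fell. Taldo1 and Tkt act in the pentose phosphate pathway without making NADPH themselves. Of the listed enzymes that do make it, Pgd and Me1 rose, Idh1 fell and G6pdx was not called. G6pdx, glucose-6-phosphate dehydrogenase, which opens the pentose phosphate pathway, stood at 45.7 FPKM in high glucose, at 45.9 in low glucose and at 44.7 in galactose and was not called in any comparison. Pgd, the next dehydrogenase of that pathway, stood at 149 FPKM in high glucose, at 143 in low glucose and at 273 in galactose and rose by 1.83-fold from high glucose to galactose. Pgd, Taldo1 and Tkt, which act after the entry step, were called, and G6pdx at the entry was not.

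Of 19 glutaredoxins, methionine sulfoxide reductases, other thioredoxin genes and further redox genes (Sod3, the sestrins, Park7 and Aifm2), 9 rose and 9 fell from high glucose to galactose. Txnip, which binds thioredoxin and is known to be induced by glucose, stood at 10.3 FPKM in high glucose, at 6.21 in low glucose and at 0.160 in galactose and fell by 6.005 on the log2 scale. Sesn2, a stress-induced sestrin, stood at 8.55 FPKM in high glucose, at 22.4 in low glucose and at 38.7 in galactose and rose by 4.53-fold, whereas its relative Sesn1 stood at 8.42 FPKM in high glucose, at 5.17 in low glucose and at 3.55 in galactose and fell by 1.25 on the log2 scale. Sod3, the extracellular dismutase, stood at 15.4 FPKM in high glucose, at 4.84 in low glucose and at 3.69 in galactose and fell by 1.67 on the log2 scale already from high to low glucose. Txnip is the member of this list with the widest change, and it fell in the comparison in which Txn1 and Txn2 rose.

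Of 14 tested loci of other glutathione transferases and peroxidases, which include Gsta1, Gsta2 and the combined Gstp1 locus again, 5 were called higher and 6 lower in galactose than in high glucose. Without Gsta1 and Gsta2 these were 3 and 6 of 12. Of 6 genes of iron and haem handling 3 rose and 1 fell. Fth1, the ferritin heavy chain, stood at 2063 FPKM in high glucose, at 1966 in low glucose and at 3211 in galactose and rose by 1.56-fold from high glucose to galactose. Ftl1, the light chain, read from a locus combined with Bax, stood at 1866 FPKM in high glucose, at 1883 in low glucose and at 2530.2 in galactose and rose by 1.36-fold. Slc48a1, a haem transporter, stood at 84.1 FPKM in high glucose, at 80.3 in low glucose and at 162 in galactose, 1.92-fold higher in galactose than in high glucose. Slc40a1, the iron exporter ferroportin, stood at 1.35 FPKM in high glucose, at 0.438 in low glucose and at 1.34 in galactose: it fell by 1.62 on the log2 scale in low glucose and was not called between high glucose and galactose. Ferritin and Hmox1, which releases iron from haem, thus rose together in galactose.

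Of 18 tested carbonyl, quinone and conjugation enzymes and pumps, 9 rose and 1 fell from high glucose to galactose. The Ugt1a locus, which combines glucuronosyltransferases including Ugt1a6a, stood at 1.44 FPKM in high glucose, at 1.21 in low glucose and at 8.80 in galactose and rose by 6.11-fold from high glucose to galactose. Abcc4, the pump MRP4, stood at 7.49 FPKM in high glucose, at 9.74 in low glucose and at 17.1 in galactose and rose by 2.28-fold. Each list is described by its counts alone, and none of them was tested as a list.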

How the data were processed

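The submitters' processing notes name TopHat2 (2.0.10), the mouse build mm10, Cufflinks (2.2.0) and, with no version, Cuffdiff; settings and the normalization between libraries are not given in the sources used here. The libraries were made from polyA RNA with a NEBNext Ultra kit, per the labels. The series' design text describes single muscle stem cells; the sample labels were followed. The deposited table, per its file headers, holds 1 FPKM value per group, pooled over 4 libraries, and a log2 fold change, p-value, q-value and status per comparison, as the authors' tool wrote them. The deposited q-value was checked by recomputing the Benjamini-Hochberg adjustment over 44006 tests.

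From these values, log2 changes, counts, medians and sums were computed here in Python 3.11.15 (numpy 2.4.6, pandas 2.3.3, scipy 1.17.1) and drawn with matplotlib 3.10.9, and the adjustment and the motif search were tested on simulated data. Called means status OK and q below 0.05. Equal sums divides each group by its summed FPKM. All 38 genes are named. Of the wider pathway lists, called loci at least 2-fold changed and at 1 FPKM or more are named, at most 4 per list, besides Slc7a11, Fth1, Ftl1, G6pdx, Bach1, Sqstm1 and Txnip. Pgd, Taldo1, Tkt, Me1 and Idh1 fall outside this rule and were named after their values were seen. The genes and lists were chosen with earlier results of these data known. Promoter sequences and gene coordinates are those of RefSeq on GRCm38.p6.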

Additional observations from a re-analysis of the deposited data

How the results depend on the processing

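Alternatives were q below 0.01, at least 2-fold, a minimum of 1 FPKM and adjustment within each comparison. Further ones were re-centring on the median of tested loci, a pseudocount of 1 FPKM and leaving out combined loci. Equal sums, leaving out members that share an interval and the fully specified motif were added after seeing the data. None turned the direction of a called gene. Of these settings only re-centring and equal sums can change a sign, and both kept the authors' q. No call was tested again under either. With the 2-fold minimum, members higher and lower were 0 and 0 from high to low glucose, 7 and 1 from high glucose to galactose, and 9 and 0 from low glucose to galactose, by construction. With q below 0.01, calls were lost for Gsr and Mgst3 from high to low glucose, Gstt1 and Ephx1 from high glucose to galactose, and Nfe2l2, Mgst3, Txn1, Prdx3 and Prdx5 from low glucose to galactose, where 1 member was then lower. Adjusted within the comparison, Mgst3 was no longer called from low glucose to galactose. Counting as moved a median that shifts by over 0.1 on the log2 scale, the median of the members from high glucose to galactose moved to 0.29 with equal sums and to 0.63 without the members that share an interval. The first shift is the 0.17 that this scaling takes off every log2 change. Of the members left out for a shared interval, all but Txnrd1 had a log2 change below the median of 0.46. With equal sums 4 rather than 7 members were at least 2-fold higher from high glucose to galactose, and 6 rather than 9 from low glucose, by construction. With equal sums the medians from high to low glucose turned to -0.022 for the regulators and -0.0065 for the peroxide-removing arm. No paired analysis was possible because the values are pooled over the libraries of a group, and for the same reason no library could be left out. Depth is unknown, so a gene that was not called may differ by less than these libraries can show.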
